A study of Arabidopsis thaliana with 2 samples.

Results

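The receptor-like proteins (RLPs) of Arabidopsis thaliana were followed in rosettes of 2 genotypes. The family was taken as 55 gene identifiers, the leucine-rich repeat members RLP1 to RLP57 as far as these identifiers cover them, and the members were read by identifier from both gene tables, which list 23147 genes between them. Of the 55, 54 were found in the reference annotation, 51 were listed in at least 1 library, and 46 reached 1 FPKM (fragments per kilobase of gene, scaled to library size) in either. The wild type plants were Col-0. The other plants carried pPBL19-PBLC3A-GFP-HA, a tagged PBL19 transgene with the protein change C3A (alanine in place of cysteine 3) under the PBL19 promoter, in a pbl19 null mutant of the same accession. All plants were untreated and 28 days old, and the tissue was the rosette. Each genotype had 1 library, so no difference below has a replicate check and none has a p-value. The sources used here do not give the number of plants per library or of independent transgenic lines, and plants with an unchanged PBL19 transgene were not analysed here.

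RLPs are cell surface receptors with an extracellular leucine-rich repeat domain, a single membrane span and a short tail without a kinase domain. Those that detect microbes form a constant complex with the adaptor kinase SOBIR1 and recruit the co-receptor BAK1 when the ligand binds. In Arabidopsis leaves the receptor RLP23 then signals through cytoplasmic kinases of the PBL family, to which PBL19 belongs, and through EDS1, PAD4 and the helper receptors of the ADR1 family. A few members act in development instead, among them CLV2 in meristems and TMM in the stomatal lineage.

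The libraries held 11937705 (wild type) and 12001808 (C3A) estimated counts. PBL19 itself was read at 6.68 FPKM in wild type rosettes, against 466 in C3A rosettes, and its reads cannot be assigned to the transgene or the native locus. The rosette markers RBCS1A, LHCB2.1, CAB3 and RCA were the most abundant marker genes in both libraries, with summed levels of 22058 and 12931 FPKM, and LHCB2.1 and CAB3 were at least 2-fold lower in the C3A library. Of 6 root markers all were listed in both libraries, with sums of 63.2 FPKM (wild type) and 44.4 FPKM (C3A), and 3 of them (IRT1, PIN2 and EXPA7) were at least 2-fold lower there. COBL9 (4.07 and 1.57 FPKM) and RHD2 (4.46 and 2.72 FPKM) were lower by less than that on the FPKM + 1 scale used below. PHT1;1, the most abundant of the 6, was at 20.1 and 27.9 FPKM and has fractional counts. In whole rosettes, fewer cells of a type and less RNA per cell cannot be told apart. The part of these markers in the results below was not tested.

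Almost as many members were at least 2-fold higher in the C3A library as stayed under 2-fold. On the log2 scale of FPKM + 1, 22 of the 46 members at 1 FPKM or more were at least 2-fold higher, 1 was at least 2-fold lower and 23 lay between. Among all 19527 genes treated the same way, 7.89% were higher and 2.85% lower. The median log2 ratio (C3A over wild type) of the 46 was 0.89, beside 0.14 for all genes tested. The ratios of the 46 ran from -1.06 for RLP33 to 5.76 for RLP23. Of the 46, 15 were under 1 FPKM in the wild type and entered through the C3A library, where they had to be higher. Among all 19527 genes 932 were in that range, a smaller part than 15 of 46, and 46.4% of these were called higher. The shares over all genes are therefore no like-for-like comparison for the 46. Over the 31 members at 1 FPKM or more in the wild type, 12 were higher and 1 was lower, beside 5.96% and 3.0% of all genes under that filter. The median log2 ratio of these 31 was 0.58, beside 0.12 for all genes under that filter. With the counting interval of the ratio also required to lie past 2-fold, 20 of 45 members listed in both libraries were higher and none was lower, beside 5.43% and 1.84% of all genes. This count used the filter on either library again. Members that passed it through the C3A library alone remain in it, so it is no like-for-like comparison either.

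Summed over the family, 177 FPKM were read in wild type and 576 in C3A rosettes. In the wild type 3 members were at 10 FPKM or more, and in the C3A library 14 were. The order of the members changed as well. Highest in wild type rosettes were RLP54, RLP4 and RLP33 (25.9, 23.5 and 12.3 FPKM), which took ranks 5, 8 and 21 in the C3A library. There RLP34, RLP23 and RLP41 led, at 110, 77.9 and 50.1 FPKM, and these 3 held 41.2% of the summed level, beside 5.10% of it in the wild type. The plot of members by genotype shows large differences both for members that were low in the wild type, such as RLP23, and for RLP34, which stood at rank 8 there with 6.71 FPKM.

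The choice of scale and filter moved the count of higher members more than the count of lower ones. After rescaling all genes to a median ratio of 1, 20 of the 46 were higher and 1 was lower, beside 6.11% and 3.97% of all genes. TMM-scaled counts gave 20 and 1 (6.2% and 3.92%), and rescaling without the 100 most abundant genes gave 21 and 1 (6.4% and 3.73%). With 0.1 FPKM added in place of 1, 27 were higher and 1 was lower (10.6% and 4.67%), and with 5 FPKM added 8 were higher and 0 lower (3.76% and 1.24%). Of the 25 members at 5 FPKM or more in either library, 13 were higher and 1 was lower (8.17% and 2.94%). In each of these settings a larger share of members than of all genes was higher. All of them kept a filter on either library, so members that entered through the C3A library alone remain in each.

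**Figure D1:**
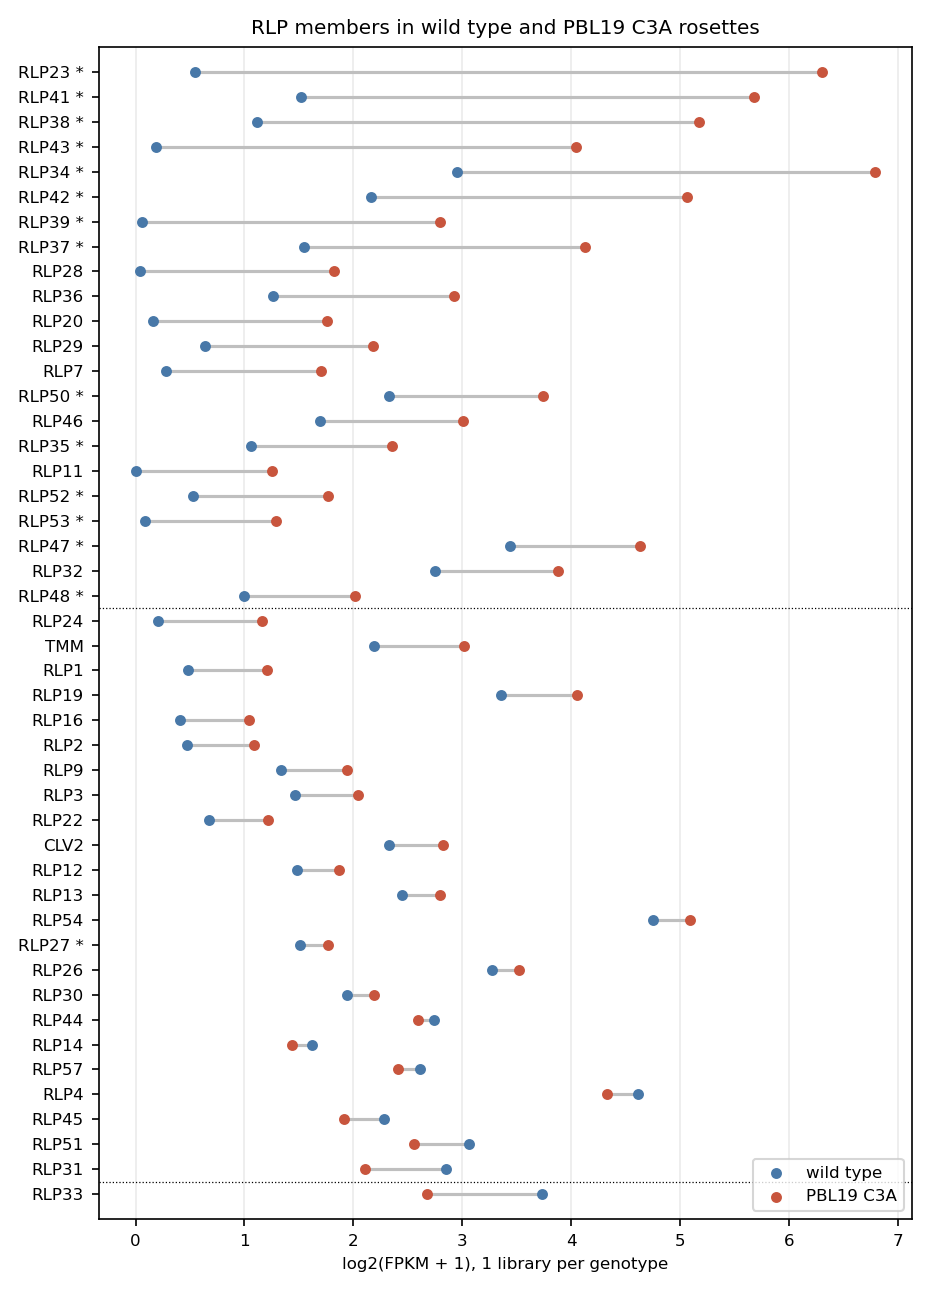
Level of each of the 46 RLP members at 1 FPKM or more in either library, as log2(FPKM + 1), in wild type (blue) and PBL19 C3A (red) rosettes, with 1 library per genotype and members ordered by their log2 ratio. Dotted lines separate the 22 members at least 2-fold higher (top) and the 1 at least 2-fold lower (bottom), and a star marks fractional counts.

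Many of these genes are close copies. Fractional counts, which arise when a read that matches several genes is divided between them, were found for 15 members, and 14 of the 22 higher members are among them. Without genes with fractional counts 8 of 31 members were higher and 1 was lower, beside 7.41% and 2.59% of all such genes. Of these 8, RLP7, RLP11, RLP20, RLP28 and RLP29 were under 1 FPKM in the wild type and entered through the C3A library. Of the 22, 10 overlap an annotated gene, 9 of them a gene on the opposite strand, and the sources used here do not say if strand was used in counting. Without overlapping genes 12 of 29 members were higher and 1 was lower, beside 8.66% and 3.01% of all such genes. Here too members remain that entered through the C3A library alone, so neither count is a like-for-like comparison with all genes. The following stretches show how alike the copies can be, from the coding parts of 4 members (TAIR10.1, 5′ to 3′ on the coding strand, capitals marking bases that differ from RLP34). The copies lie at chr3:3451070-3451129 (RLP34), chr5:9522616-9522675 (RLP53), chr3:10896788-10896847 (RLP43) and chr3:3473174-3473233 (RLP35).
RLP34: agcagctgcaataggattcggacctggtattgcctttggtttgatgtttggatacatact
RLP53: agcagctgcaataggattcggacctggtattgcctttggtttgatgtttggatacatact
RLP43: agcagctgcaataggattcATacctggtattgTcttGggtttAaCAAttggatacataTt
RLP35: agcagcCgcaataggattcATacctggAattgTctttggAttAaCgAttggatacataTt
RLP34 and RLP53 are identical here, within an identical coding run of 135 bases, while RLP43 differs at 9 and RLP35 at 10 of the 60 bases. A second family of copies is shown by RLP42 at chr3:9119181-9119240, RLP41 at chr3:9112389-9112448 and RLP39 at chr3:9101475-9101534, with capitals marking bases that differ from RLP42.
RLP42: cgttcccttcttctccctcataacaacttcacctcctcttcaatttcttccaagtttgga
RLP41: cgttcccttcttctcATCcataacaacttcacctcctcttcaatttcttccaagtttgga
RLP39: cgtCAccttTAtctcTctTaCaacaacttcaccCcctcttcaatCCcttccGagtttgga
RLP41 differs from RLP42 at 3 of these bases and RLP39 at 11. The longest identical coding runs, of 242 bases between RLP34 and RLP35 and 244 bases between RLP40 and RLP42, exceed the read length of 150 bases. Single-gene values inside such sets are therefore uncertain, whereas the summed counts of a set do not depend on how reads were divided within it. Summed FPKM still depends on that through the gene lengths, and some members also share sequence with overlapping genes outside their set.

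Receptors with a described microbial ligand did not behave alike. RLP23, which binds a peptide of secreted NLP toxins of bacteria, fungi and oomycetes, had 16 counts (0.46 FPKM) in wild type and 2698 counts (77.9 FPKM) in C3A rosettes. This was the largest log2 ratio of the family, and the ratio of the levels was 168 (95% counting interval 103 to 294). RLP23 (AT2G32680, chr2:13859769-13862614, minus strand, 1 exon) shares a coding run of 60 bases with RLP27 and overlaps VAMP725 on the opposite strand. RLP27 itself was at 1.84 and 2.41 FPKM, and the pair summed was 34.9-fold higher (27.9 to 44.3), with 78 and 2780 summed counts.

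RLP42 (AT3G25020), the receptor for fungal endopolygalacturonases, had 131 counts (3.46 FPKM) in wild type and 1233 counts (32.4 FPKM) in C3A rosettes, a ratio of 9.39 (7.82 to 11.3). RLP32, which recognizes the bacterial translation initiation factor 1, had 269 and 645 whole counts, or 5.74 and 13.7 FPKM, a ratio of 2.39 (2.07 to 2.76). Its log2 ratio of 1.12 fell under 2-fold when the median gene was set to no change (0.97) and under TMM scaling (0.99). RLP52, described in resistance to powdery mildew, had 13 and 71.2 estimated counts, or 0.44 and 2.41 FPKM, a ratio of 5.45 (2.98 to 10.7). These 3 were above the wild type in the C3A library, but by very different amounts.

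The other members with a described immune role stayed under 2-fold on the FPKM + 1 scale. RLP30, needed for responses to a Sclerotinia elicitor, was at 2.85 and 3.57 FPKM, a ratio of 1.25 (0.95 to 1.66) whose interval includes no difference. RLP1, which senses an elicitor of Xanthomonas, had 16 and 52 counts, or 0.40 and 1.31 FPKM, and RLP3, a Fusarium resistance locus, was at 1.75 and 3.12 FPKM, a ratio of 1.78 (1.24 to 2.59). The plain ratio of RLP1 was 3.24 (1.82 to 6.07), and the added 1 FPKM brings its log2 ratio to 0.72. RLP3 overlaps AT1G17255 on the opposite strand, which holds 100% of the 31-base stretches of the RLP3 transcript. RLP51, known as SNC2, an activator of defence when mutated, was read at 7.34 FPKM in wild type and 4.88 in C3A rosettes, 1.502-fold lower (1.17 to 1.94).

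The set of RLP34, RLP35, RLP43 and RLP53 gave the highest level of the family. RLP34 (AT3G11010) had 241 and 3974 estimated counts, which is 6.71 FPKM in wild type and 110 in C3A rosettes, a ratio of 16.4 (14.4 to 18.7). RLP43 (AT3G28890) was at 0.14 and 15.5 FPKM with 4.11 and 448 counts, a ratio of 107 (42.8 to 407). RLP35 (AT3G11080) was at 1.08 and 4.1 FPKM with 41.5 and 159 counts, a ratio of 3.80 (2.66 to 5.40). All 4 have fractional counts. RLP53 (AT5G27060), whose coding sequence is 89.9% identical to that of RLP34, was at 0.06 and 1.44 FPKM with 2.21 and 51.7 counts, a ratio of 22.7 (6.65 to 214). The 4 together had 289 and 4633 counts and gave 7.99 FPKM in wild type and 131 in C3A rosettes, 16.4-fold higher (14.5 to 18.5). RLP34 made up most of this sum in both libraries, and it overlaps AT3G11000 on the opposite strand.

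RLP39, RLP41 and RLP42 lie together on chromosome 3, with RLP40 among them. RLP41 (AT3G25010), described in responses to abscisic acid, was at 1.86 and 50.1 FPKM with 62.9 and 1705 estimated counts, a ratio of 27 (20.95 to 35.2). RLP39 (AT3G24900) was at 0.04 and 5.95 FPKM with 1.24 and 197 estimated counts, a ratio of 154 whose interval runs from 33.9 to 7578. The wild type counts of RLP39 are too few for a firm ratio. RLP40 (AT3G24982) is not among the 55 identifiers, which hold AT3G24954 in the same stretch of numbers, and that identifier is in neither table and not in the reference. RLP40 was at 1.88 and 2.06 FPKM, a ratio of 1.10 (0.81 to 1.47), although its coding sequence is 91.4% identical to that of RLP42 and the RLP40 gene overlaps AT3G24929. Summed over RLP39, RLP40, RLP41 and RLP42, the counts were 285 and 3235 and the levels 7.24 and 90.6 FPKM, a ratio of 12.5 (11.1 to 14.2).

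RLP36, RLP37 and RLP38 were all higher. RLP38 (AT3G23120) was at 1.17 and 35.1 FPKM with 33.9 and 1021 estimated counts, a ratio of 29.98 (21.3 to 43.4). RLP37 (AT3G23110) was at 1.92 and 16.5 FPKM with 58.1 and 502 estimated counts, a ratio of 8.6 (6.56 to 11.51). RLP36 (AT3G23010), with whole counts of 41 and 194, was at 1.40 and 6.57 FPKM, a ratio of 4.71 (3.35 to 6.77). The sum over the 3, with 133 and 1717 counts, was 12.9-fold higher (10.8 to 15.6) in the C3A library. RLP47, RLP48 and RLP50 on chromosome 4 differed less. RLP47 was at 9.85 and 23.8 FPKM with 311 and 779 estimated counts, a ratio of 2.42 (2.12 to 2.77). RLP50 was at 4.02 and 12.3 FPKM with 134 and 413 estimated counts, a ratio of 3.07 (2.52 to 3.76). It overlaps AT4G13918 on the opposite strand, which holds 100% of the 31-base stretches of the RLP50 transcript. RLP48 was at 1.0 and 3.04 FPKM with 30.7 and 93.3 estimated counts, a ratio of 3.03 (1.97 to 4.64). Their sum was 476 and 1285 counts, or 14.9 FPKM in wild type and 39.2 in C3A rosettes, 2.63-fold higher (2.37 to 2.93), and the pseudogene RLP49 between them was unlisted in both. RLP48, the higher member nearest to the threshold, had a log2 ratio of 1.01 and fell under 2-fold after each of the 3 rescalings, at 0.89 to 0.92.

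Among the 8 higher members with whole counts, RLP32 and RLP36 are given above, and the other 6 were low in the wild type. RLP46 had 73 counts (2.24 FPKM) in wild type and 231 counts (7.05 FPKM) in C3A rosettes, a ratio of 3.15 (2.41 to 4.16). It overlaps AT4G04221 on the opposite strand, which holds 96.9% of the 31-base stretches of the RLP46 transcript, so its reads may belong to either gene. RLP29 was at 0.56 and 3.53 FPKM with 16 and 101 counts, a ratio of 6.28 (3.69 to 11.4), and RLP7 at 0.21 and 2.25 FPKM with 8 and 86 counts, a ratio of 10.7 (5.19 to 25.6). Still fewer wild type reads lay behind the next members. RLP20 rested on 3 and 58 counts (0.12 and 2.38 FPKM) and RLP28 on 1 and 75 (0.03 and 2.54 FPKM), with ratios of 19.2 (6.27 to 96.0) and 74.7 (13.0 to 2988). RLP11, unlisted in the wild type, had 43 counts (1.38 FPKM) in C3A rosettes. The counting intervals of the 5 with a ratio all lay above 2, but 5 of the 6 were under 1 FPKM in the wild type. With 5 FPKM added in place of 1, each of these 6 was under 2-fold, and 8 of the 46 members remained at 2-fold or more.

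RLP33 was the single member at least 2-fold lower in the C3A library. It had 475 counts (12.3 FPKM) in wild type and 209 counts (5.37 FPKM) in C3A rosettes, 2.28-fold lower (1.94 to 2.70), and its neighbour RLP32 was higher. RLP31, next on the lower side, was at 6.19 and 3.32 FPKM, 1.86-fold lower (1.48 to 2.35), while its neighbour RLP30 was at 1.25 times the wild type level as given above. Of the 3 members most abundant in the wild type, RLP54 and RLP4 stayed under 2-fold and RLP33 did not. RLP54 was read at 25.9 FPKM in wild type and 33.0 in C3A rosettes, 1.27-fold higher (1.16 to 1.39). RLP4 was at 23.5 and 19.1 FPKM, and the wild type level was 1.23-fold that of the C3A library (1.10 to 1.37). The plot of the difference against wild type level sets these members beside all genes.

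**Figure D2:**
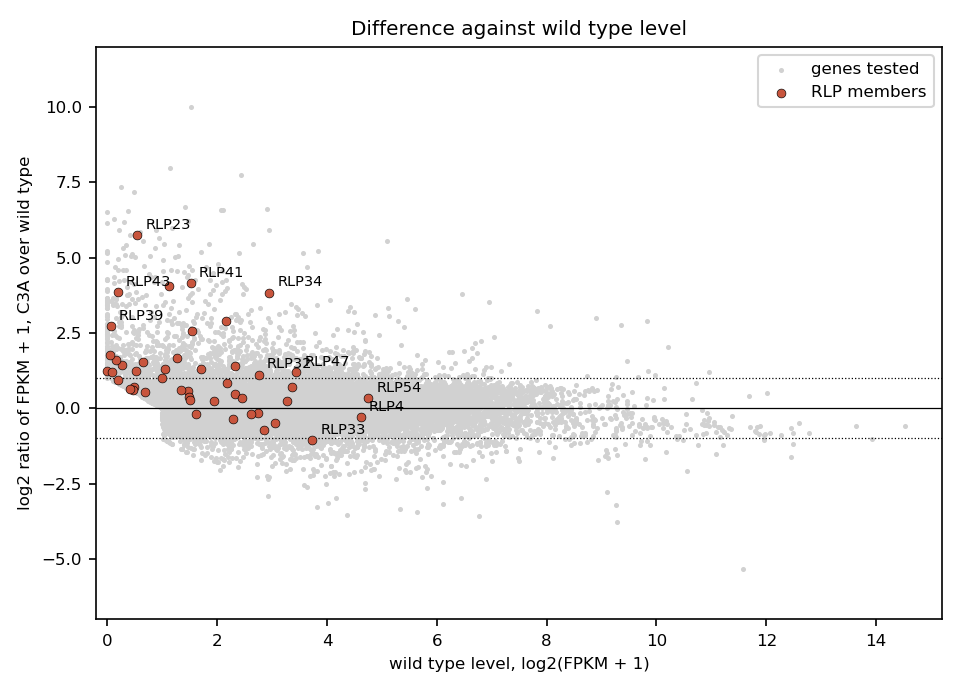
Ratio of C3A to wild type as log2 of FPKM + 1 against the wild type level as log2(FPKM + 1), for the 19527 genes tested (grey) and the 46 RLP members among them (red). Dotted lines mark 2-fold, and the empty lower left corner comes from the filter of 1 FPKM in either library.

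By wild type level, 9 of 19 members between 1 and 5 FPKM in the wild type were at least 2-fold higher, beside 9.85% of all genes in that range. Of the 12 members at 5 FPKM or more, 3 were higher and 1 was lower, beside 4.41% and 3.24% of all genes. Those 3 are RLP34, RLP47 and RLP32. The median log2 ratio of the 12 was 0.05, beside 0.12 for all genes in that range. For the 19 members between 1 and 5 FPKM the median was 0.83, beside 0.12 for all genes in that range. Below 1 FPKM in the wild type 10 of 15 members were higher, but 46.4% of all genes tested in that range were too, since they had entered through the C3A library.

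CLV2 and TMM, members with developmental roles, stayed under 2-fold on the FPKM + 1 scale, as most genes tested did. Of all genes tested 7.89% were higher and 2.85% lower, and so few members allow no comparison with the immune ones. CLV2, which with the kinase-like partner CRN limits stem cell number in meristems, was at 4.03 and 6.07 FPKM, a ratio of 1.51 (1.20 to 1.90). CRN was at 6.57 and 4.32 FPKM and the receptor kinase CLV1 at 23.4 and 21.3 FPKM, so that both lay on the other side of 0 from CLV2, and the peptide gene CLV3 was unlisted in both. Of 3 shoot meristem markers none was listed in the wild type. STM was at 5.45 FPKM in the C3A library, and WUS and CLV3 were unlisted there too. The part of meristem tissue in the CLV2 value was not tested.

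TMM, which with ERECTA-family kinases limits the formation of stomata, had 78 counts (3.55 FPKM) in wild type and 157 counts (7.10 FPKM) in C3A rosettes. The plain ratio was 2.004 (1.52 to 2.66) and the log2 ratio of FPKM + 1 was 0.83. Of its 6 listed partners EPF2, a peptide that inhibits entry into the lineage, was higher, with 3 and 46 counts (0.31 and 4.71 FPKM). The others stayed under 2-fold or under 1 FPKM. ERECTA was at 20.5 and 18.6 FPKM, EPFL9 at 9.98 and 6.84 FPKM, ERL2 at 2.0 and 2.38 FPKM, EPF1 at 1.57 and 0.98 FPKM and ERL1 at 0.43 and 0.83 FPKM. All 5 stomatal lineage markers were listed in both libraries, with sums of 13.6 and 17.5 FPKM. The early regulators SPCH (1.25 and 3.13 FPKM) and MUTE (0.54 and 1.43 FPKM) lay above their wild type level, as TMM did, and the late regulator FAMA (9.96 and 7.27 FPKM) below it. MUTE rests on 6 and 16 counts, and the interval of its ratio, 0.99 to 8.28, includes no difference. The part of these markers in the TMM value was not tested.

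RLP44, which links the cell wall to brassinosteroid signalling, had 70 and 72 counts, or 5.67 and 5.03 FPKM. In the deposited FPKM the sign of its ratio comes from the deposited lengths of 1044 and 1198 bases. With TMM-scaled counts and a common length RLP44 had a log2 ratio of -0.10. Its described partners lay above 0, with BRI1 at 28.1 and 38.4 FPKM, PSKR1 at 5.92 and 12.6 FPKM and BAK1 at 20.7 and 33.9 FPKM, and none reached 2-fold on the FPKM + 1 scale. The plain ratio of PSKR1 was 2.13 (1.84 to 2.48), and the added 1 FPKM brings its log2 ratio to 0.98. RLP57, whose coding sequence is 78.4% identical to that of RLP44, was at 5.11 and 4.30 FPKM, a ratio of 0.84 (0.62 to 1.14). RLP55 was under 1 FPKM in both libraries, with 3 and 2 counts (0.16 and 0.10 FPKM). The intervals of RLP44, RLP57 and RLP55 all include no difference, which at these counts does not show that the levels were alike.

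Of 14 genes described as acting with the immune RLPs, 9 were at least 2-fold higher and none was lower, beside 7.89% and 2.85% of all genes tested. A list of 14 is too short to set the lack of lower genes apart from that share. All 14 were at 1 FPKM or more in the wild type, a filter under which 5.96% of all genes were higher and 3.0% lower. Their median log2 ratio was 1.48, beside 0.14 over all genes tested. The list was chosen with earlier results of these data known. SOBIR1, the adaptor of these receptors, was at 38.0 and 288 FPKM, a ratio of 7.60 (7.11 to 8.14). Among co-receptors SERK4 was at 9.16 and 40.9 FPKM while BAK1 stayed under 2-fold, at 1.64 (1.49 to 1.80) times the wild type level. The kinases that restrain these complexes differed, with BIR1 at 19.9 and 75.9 FPKM, BIR2 at 6.47 and 11.7 FPKM and BIR3 at 20.3 and 21.0 FPKM. Of the cytoplasmic kinases PBL30 was at 7.57 and 25.0 FPKM and higher, while PBL31 (19.6 and 29.7 FPKM) and BIK1 (8.61 and 14.3 FPKM) stayed under 2-fold. SERK4 has fractional counts, and SOBIR1, BAK1, PBL31 and ADR1-L1 overlap another gene. EDS1, PAD4 and all 3 ADR1 genes were among the 9. EDS1 was at 9.51 and 62.1 FPKM and PAD4 at 9.85 and 111 FPKM. The helper receptors differed less, with ADR1 at 3.67 and 13.1 FPKM, ADR1-L1 at 28.8 and 74.6 FPKM and ADR1-L2 at 16.4 and 43.9 FPKM.

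SNC2 stood apart from the genes placed downstream of it. BDA1, a membrane protein with ankyrin repeats that SNC2 signalling needs, was at 6.55 and 59.97 FPKM, a ratio of 9.17 (7.65 to 11.1), and the transcription factor WRKY70 at 89.5 and 338 FPKM, a ratio of 3.78 (3.58 to 3.999). BDA1 overlaps another gene. SNC2 itself had a log2 ratio of -0.50. The plot of partners shows both genes with the immune partners to the right of their wild type level.

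**Figure D3:**
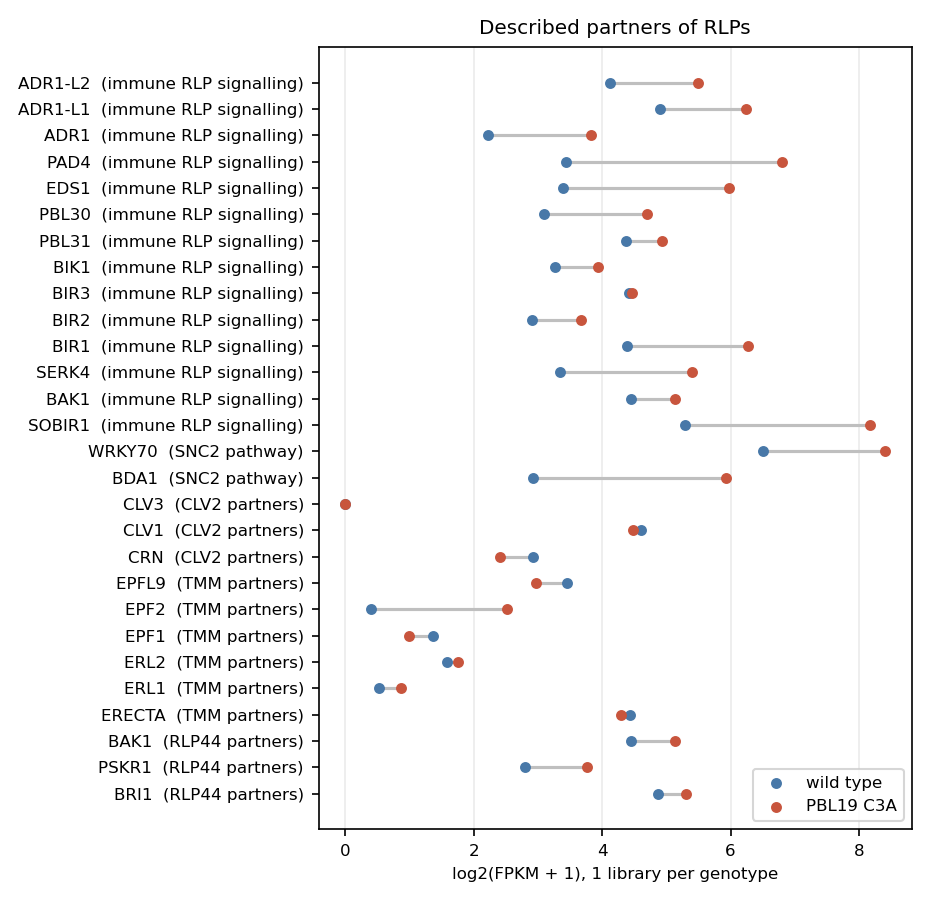
Level as log2(FPKM + 1) in wild type (blue) and PBL19 C3A (red) rosettes, 1 library per genotype, of genes described as partners of RLPs, by list. BAK1 is on 2 lists and is drawn for both, and CLV3 was unlisted in both libraries.

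In the genome 35 of the 54 annotated members lie in 13 tandem groups, in which the next member lies within 50 kb. Of the 22 higher members 16 lie in such groups, among 30 tested members there. Outside the groups 6 of the 16 tested members were higher, and of all genes tested 7.89% were. In the groups RLP11, RLP20, RLP23, RLP28 and RLP39 were under 1 FPKM in the wild type and entered through the C3A library. Outside them all 6 but RLP46 did so. The groups were of different kinds. In those of RLP34 and RLP35, of RLP36 to RLP38, of RLP39, RLP41 and RLP42 and of RLP47 to RLP50, every tested member was higher, as was RLP20, the tested member of the pair with RLP21. RLP40, no member but within the stretch of RLP39 to RLP42, was not higher. In those of RLP2 and RLP3, of RLP13 to RLP16, of RLP18 and RLP19 and of RLP30 and RLP31, no member was. The remaining groups were mixed. RLP12 was at 1.80 and 2.64 FPKM beside RLP11, RLP33 was lower beside RLP32, RLP22 was at 0.60 and 1.33 FPKM beside RLP23, and RLP26 was at 8.64 and 10.5 FPKM in the group of RLP28. Members of a group share ancestry and partly reads, so they are not separate observations.

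**Figure D4:**
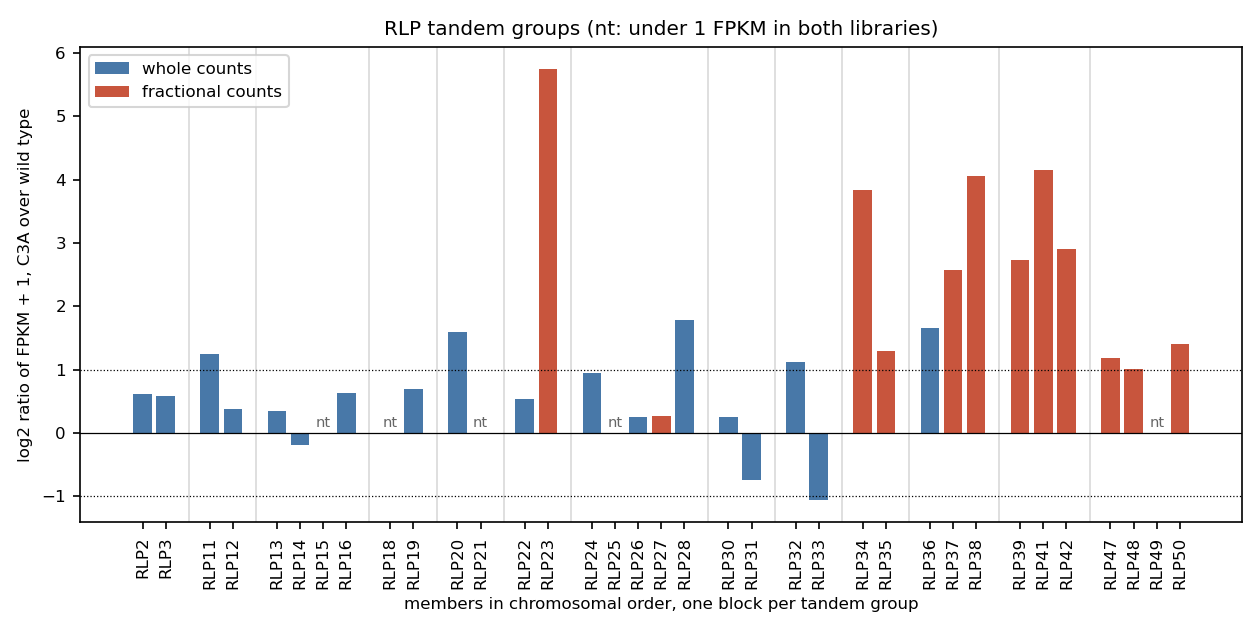
Ratio of C3A to wild type, as log2 of FPKM + 1, of the 35 members in 13 tandem groups, in chromosomal order, with bars in red for fractional and in blue for whole counts. Dotted lines mark 2-fold, nt marks members under 1 FPKM in both libraries, and the groups from RLP34 to RLP50 lie wholly above 0.

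The members differ in size and structure. Those with a coding sequence have between 218 and 1083 codons, and 28 of the 54 have a single exon. The 22 higher members had a median of 823 codons and the 23 under 2-fold a median of 792. RLP44 and RLP57, with 274 and 279 codons, and RLP51 with 431 are among the short ones.

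The 250 bases before each annotated gene start were searched on both strands for TTGAC, the core of the W-box that WRKY transcription factors bind, and for TGACG, the core bound by TGA factors. The motifs share a stretch of letters, so 1 site can match both. TTGAC was found upstream of 18 of the 22 higher members (81.8%), 15 of the 23 members under 2-fold (65.2%) and 39 of all 54 (72.2%), beside 44.9% of the 27444 protein-coding genes searched and 56.4% of all tested genes at least 2-fold higher. At least 2 matches were found for 6 of the 22 higher members (27.3%), beside 14.1% of protein-coding genes and 24.3% of all tested genes at least 2-fold higher. TGACG was found for 6 of the 22 (27.3%) and 12 of all 54 members (22.2%), beside 18.6% of protein-coding genes and 21.6% of all tested genes at least 2-fold higher. A match is a string of letters and not a shown binding site, and no match is no statement on the factor. Windows of close copies are not separate observations. Those of RLP43 and RLP53 are 94.3% identical over their aligned part, those of RLP39 and RLP41 91.7% and those of RLP37 and RLP38 84.15%. A match to TTGAC is kept within each of these pairs. The windows of 3 of the most abundant members in the C3A library are given here, with matches in capitals, at chr2:13862615-13862864 for RLP23, chr3:3453986-3454235 for RLP34 and chr3:8229620-8229869 for RLP38, all on the minus strand of TAIR10.1. They read toward the gene, and none overlaps another annotated gene.
RLP23: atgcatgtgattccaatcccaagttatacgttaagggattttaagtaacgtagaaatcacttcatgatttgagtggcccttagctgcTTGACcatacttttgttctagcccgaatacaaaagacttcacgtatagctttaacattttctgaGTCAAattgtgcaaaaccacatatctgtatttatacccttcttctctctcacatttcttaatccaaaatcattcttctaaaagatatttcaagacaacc
RLP34: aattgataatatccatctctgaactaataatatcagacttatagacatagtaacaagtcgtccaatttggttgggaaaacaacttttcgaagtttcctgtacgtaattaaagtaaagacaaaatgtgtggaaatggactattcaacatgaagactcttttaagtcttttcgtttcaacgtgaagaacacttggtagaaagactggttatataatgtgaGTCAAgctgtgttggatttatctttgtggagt
RLP38: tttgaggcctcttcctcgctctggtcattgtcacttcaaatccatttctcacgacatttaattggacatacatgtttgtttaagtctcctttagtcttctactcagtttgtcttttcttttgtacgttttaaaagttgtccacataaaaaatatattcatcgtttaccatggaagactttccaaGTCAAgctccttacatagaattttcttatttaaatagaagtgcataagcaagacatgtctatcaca
RLP23 has 2 matches to TTGAC, and RLP34 and RLP38 have 1 each. RLP43 and RLP53, copies of RLP34 elsewhere in the genome, keep its match. The aligned 60 bases of RLP43 at chr3:10898943-10899002 and of RLP53 at chr5:9525535-9525594 hold it in nearly the same surroundings, and these windows are 94.3% identical over 141 aligned bases.
RLP43: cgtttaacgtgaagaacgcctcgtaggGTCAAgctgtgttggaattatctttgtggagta
RLP53: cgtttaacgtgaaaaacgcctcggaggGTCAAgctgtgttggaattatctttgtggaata
The tandem copies on chromosome 3 show a difference inside a match. The aligned 30 bases are from chr3:9113066-9113095 (RLP41), chr3:9102154-9102183 (RLP39) and chr3:9119915-9119944 (RLP42), all on the minus strand.
RLP41: ccaattctccttCGTCAAagcacgtcgggt
RLP39: ccaattcttcttCGTCAAagcacgtcgggc
RLP42: ccaattctccttcgtaaaagcacgtagggt
RLP41 and RLP39 hold TTGAC and TGACG in overlap. RLP42 carries the substitution C107A, counted from 1 at the 5′ end of the RLP41 window with the RLP41 base first, and has neither motif in its 250 bases. The stretch of RLP41 lies within the annotated neighbour AT3G25011, and the 250 bases searched for RLP39 overlap AT3G04845. On the FPKM + 1 scale RLP42 was higher in the C3A library, with a log2 ratio of 2.91, beside 2.74 for RLP39 and 4.16 for RLP41. The order of RLP39 and RLP42 depends on the pseudocount, since with 0.1 FPKM added the values were 3.19 for RLP42, 5.43 for RLP39 and 4.68 for RLP41.

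**Figure D5:**
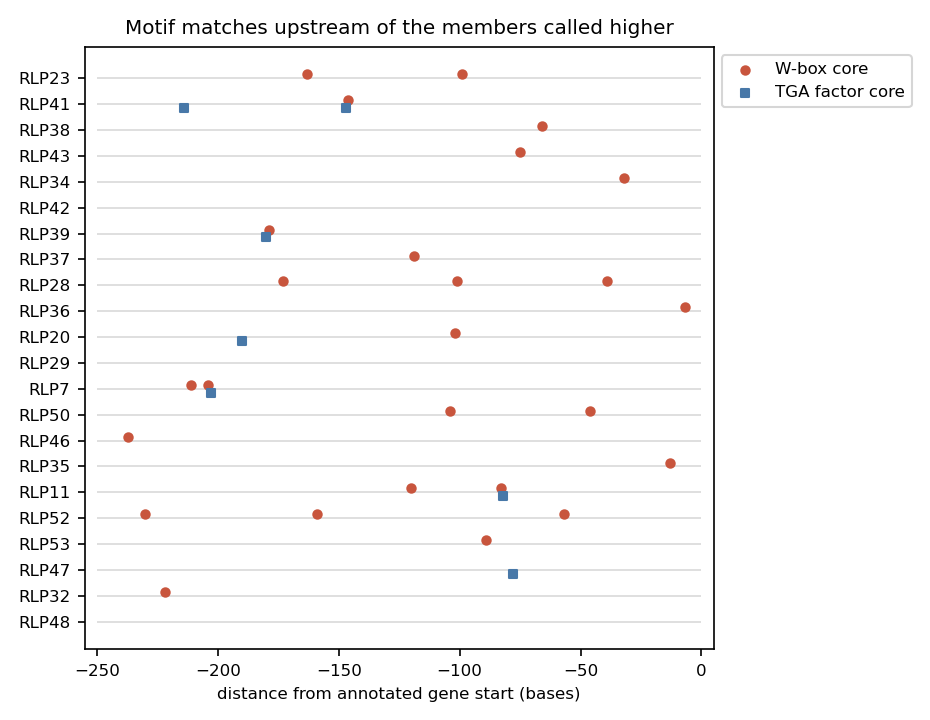
Position of each match to the W-box core (red) and the TGA factor core (blue) in the 250 bases before the annotated gene start, for the 22 members at least 2-fold higher in the C3A library, ordered by their log2 ratio. No match to either motif was found for RLP42, RLP29 and RLP48, and RLP47 has a TGA factor core only.

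At the threshold, the members just inside were RLP48 (1.01) and RLP32 (1.12) in log2 ratio, and those just outside were RLP24 (0.96) and TMM (0.83). RLP24 had 5 and 40 counts, or 0.15 and 1.23 FPKM, a ratio of 7.96 (3.14 to 25.9), so its place outside comes from the added 1 FPKM. The other members under 2-fold, given in the plot of members by genotype, ran from -0.74 for RLP31 to 0.83 for TMM. Of the 55 identifiers 9 were not compared. Below 1 FPKM in both libraries were RLP6, RLP15, RLP21, RLP55 and RLP56, among which RLP21 had no wild type counts and 26 in the C3A library, and RLP56 had 33 and 15. RLP18, RLP25, RLP49 and AT3G24954 were unlisted in both, of which RLP18 and RLP49 are annotated as pseudogenes.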

How the data were processed

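Total RNA of whole rosettes was sequenced as 150 bp paired-end reads, per the labels' protocols, with 1 library for each of 2 genotypes, grouped by genotype label (wild type) and title (C3A). The submitters' processing notes name Trimmomatic 0.36, HISAT and TAIR10. The sources used here give neither the quantification tool nor the use of strand. Per the file headers, the authors deposited an estimated count (called an expected count there) for each gene, beside its length and FPKM. The deposited FPKM values were used unscaled. Only genes above 0 are listed, and an unlisted gene was set to 0. The counts were whole for 89.1% (wild type) and 88.9% (C3A) of listed genes (tolerance 1e-09).

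C3A was set against wild type as a log2 ratio of FPKM + 1 for genes at 1 FPKM or more in either library, called at 2-fold. This scale understates differences of low genes. A ratio given for a gene is its count per length and library, with a 95% Clopper-Pearson interval, conditional on the sum, of rounded estimated counts. Such intervals cover counting error only. Alternatives were rescaling to a median ratio of 1, TMM factors (edgeR 4.0.16 in R 4.3.3), rescaling without the 100 most abundant genes, pseudocounts of 0.1 and 5 FPKM, other filters, and leaving out genes with fractional counts or overlaps. The steps were tested on simulated data. Python 3.11.15, pandas 2.3.3, numpy 2.4.6, scipy 1.17.1, biopython 1.88 and matplotlib 3.10.9 were used.

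Names, gene models and sequences come from RefSeq's TAIR10.1, where 54 of the 55 identifiers were found. Coding identity is the share of identical positions in a global alignment of the longest coding sequences. Sets of members that share reads have at least 30 common stretches of 31 bases. The members, the lists and the rule for naming genes were chosen with earlier results of these data known: members at least 2-fold apart, members with a described role, those next to the threshold and all partners were named.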

Additional observations from a re-analysis of the deposited data

How the results depend on the processing

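No paired analysis was possible because each genotype had 1 library and the labels carry no replicate numbers, so no library could be left out either. No gene at 2-fold or more changed direction under the alternatives run, while BIR3, near no change at 0.05, lay at -0.08 to -0.11 after the 3 rescalings. After the 3 rescalings 20 to 21 of the 46 members were at least 2-fold higher and 1 lower. The count of higher members was 8 with a pseudocount of 5 FPKM, 13 of 25 at 5 FPKM or more in either library, 8 of 31 without fractional counts and 12 of 29 without overlapping genes. It was 12 of 31 at 1 FPKM or more in the wild type, a filter chosen after seeing the data, as were the summed sets and the addition of RLP40, which left 22 higher of 47. With a pseudocount of 0.1 FPKM 27 were higher. The count of lower members was 0 with a pseudocount of 5 FPKM, where RLP33 had a log2 ratio of -0.74. The family median was 1.38 with a pseudocount of 0.1 FPKM and 0.35 with 5 FPKM, which follows from the scale itself. Of the SNC2 pair 1 was higher without overlapping genes. No TMM partner was higher (0) with a pseudocount of 5 FPKM, at 5 FPKM or more in either library, or at 1 FPKM or more in the wild type, and 1 RLP44 partner was higher with a pseudocount of 0.1 FPKM. Depth limits the members under 1 FPKM, whose ratios rest on few counts.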
